A study of Mus musculus with 47 samples.

Results

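The genes examined were Trp63, Itga6, Itgb4, Pdpn, Plet1, Ly6d, Ly6a, Cldn3, Cldn4 and Ngfr, which are known as genes of basal or progenitor medullary thymic epithelial cells (mTECs). These 10 genes were chosen by name from 53402 genes of an adult and 55471 genes of a neonatal table of read counts, and each was present in both. Ngfr joined the set because its counts rose after loss of EED and fell after loss of Aire in neonates, so its neonatal values are given as a description with no test. All 10 genes passed the filter on low counts in both tables.

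In stratified epithelia, basal cells rest on a basement membrane through hemidesmosomes, and the transcription factor p63, encoded by Trp63, maintains their identity and capacity to renew. Thymic epithelium keeps part of this programme: immature mTECs carry low MHC class II, and they mature into cells with high MHC class II that express Aire. Claudin 3 and claudin 4 mark the embryonic cells from which mTECs arise, Plet1 marks early thymic epithelial progenitors, and podoplanin, encoded by Pdpn, is found on epithelial cells near the border of cortex and medulla. Aire is a regulator through which mTECs transcribe genes of other tissues, and EED belongs to the core of PRC2, a Polycomb complex that places a repressive mark on histone H3.

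RNA was sequenced from mTECs of C57BL/6 mice, sorted as CD45-negative, EpCAM-positive and Ly51-negative cells and divided by MHC class II into mTEChi and mTEClo. The 23 adult libraries came from mice aged 4 to 6 weeks and were mTEClo WT (n = 8), mTEClo AireKO (n = 4), mTEChi WT (n = 7) and mTEChi AireKO (n = 4). All adult AireKO libraries came from males, whereas WT libraries came from both sexes. WT mice were aged 4 to 5 weeks and AireKO mice 5 to 6 weeks. The 24 neonatal libraries came from mice aged 1 to 6 days and were 3 mTEClo Ctrl, 4 mTEClo EEDcKO, 3 mTEClo AireEEDdKO, 5 mTEChi Ctrl, 3 mTEChi EEDcKO, 3 mTEChi AireKO and 3 mTEChi AireEEDdKO libraries. The mTEClo Ctrl libraries came from days 1 to 3 and all AireKO and AireEEDdKO libraries from days 4 to 6. The mTEChi Ctrl libraries and the EEDcKO libraries of both fractions spanned days 1 to 6. EEDcKO mice lost a floxed EED through Foxn1-Cre, which acts in thymic epithelium as a whole and not in mTECs alone, and AireEEDdKO mice lacked Aire as well. Several neonatal libraries pooled animals of both sexes, and the labels do not say which libraries share a litter, so p-values measure the spread between libraries.

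Total counts ran from 1602125 to 3938588 in adult and from 1578579 to 4817418 in neonatal libraries. Aire was lower in every library from Aire-deficient mice than in every Aire-sufficient library of the same fraction and age, and Eed fell in neonatal mTEChi EEDcKO from 28.9 ± 7.86 CPM (counts scaled to library size, mean ± SD, n = 5) to 14.7 ± 4.59 (n = 3), a log2 difference of −1.0 (SE 0.22, edgeR adjusted p 0.0014). The summed level of 6 epithelial markers, Epcam and Krt5 among them, lay between 1260 and 2840 CPM in all libraries. Over 37 mitochondrial genes, 0 counts were recorded in all 4 libraries of adult mTEChi AireKO and in replicates 3 and 4 of mTEClo AireKO, and the other 17 adult libraries had 6178 to 10339. Genotype and this kind of library therefore cannot be told apart in adult mTEChi, and values within 1 kind are given where a result depends on it.

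Promoter sequences of 5 of the 10 genes could be matched by symbol to RefSeq on GRCm38.p6, from 250 bases before to 50 bases after the start site. Shown here are the pair whose levels moved most closely together, Ngfr and Pdpn, and the neighbouring pair Cldn3 and Cldn4, which lie 39.3 kb apart on chromosome 5. PRC2 is known to occupy promoters rich in the dinucleotide CG, so each CG is written in capitals.
Ngfr, chr11:95587649-95587948, minus strand: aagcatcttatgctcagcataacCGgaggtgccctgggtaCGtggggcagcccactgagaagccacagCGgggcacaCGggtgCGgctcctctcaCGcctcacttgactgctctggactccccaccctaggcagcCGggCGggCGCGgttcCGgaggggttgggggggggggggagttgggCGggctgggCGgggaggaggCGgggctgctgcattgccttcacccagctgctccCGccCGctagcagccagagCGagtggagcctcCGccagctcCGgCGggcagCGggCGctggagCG
Pdpn, chr4:143299515-143299814, minus strand: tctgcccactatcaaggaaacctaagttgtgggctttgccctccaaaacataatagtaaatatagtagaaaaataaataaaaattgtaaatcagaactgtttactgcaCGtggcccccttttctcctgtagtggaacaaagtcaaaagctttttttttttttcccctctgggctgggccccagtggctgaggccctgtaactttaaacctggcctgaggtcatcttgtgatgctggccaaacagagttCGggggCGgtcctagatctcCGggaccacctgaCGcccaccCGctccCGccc
Cldn3, chr5:134985964-134986263, plus strand: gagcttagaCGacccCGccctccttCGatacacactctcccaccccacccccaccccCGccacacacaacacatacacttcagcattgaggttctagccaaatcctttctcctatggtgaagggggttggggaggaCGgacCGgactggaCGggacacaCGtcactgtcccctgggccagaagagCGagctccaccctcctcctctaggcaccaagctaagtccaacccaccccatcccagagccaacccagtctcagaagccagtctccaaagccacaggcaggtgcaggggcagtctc
Cldn4, chr5:134946885-134947184, minus strand: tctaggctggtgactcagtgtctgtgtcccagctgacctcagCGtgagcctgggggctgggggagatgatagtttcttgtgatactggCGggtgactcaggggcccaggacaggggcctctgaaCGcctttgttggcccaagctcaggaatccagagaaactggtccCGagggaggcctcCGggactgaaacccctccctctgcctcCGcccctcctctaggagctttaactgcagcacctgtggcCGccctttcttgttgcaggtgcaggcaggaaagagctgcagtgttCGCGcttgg
Ngfr held 23 CG dinucleotides, and 21.5% of 32851 promoters of this length held at least as many. Pdpn held 7, the median of all promoters, and Cldn3 and Cldn4 held 9 each, a number that 45.8% of promoters reached. Plet1, not shown, held 5, which 62% of promoters reached. These counts describe the sequence and say nothing of what binds there.

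Because long genes collect more reads, levels of different genes are compared only as CPM per kilobase of exon. In adult mTEClo WT, Ly6a stood highest at 116 ± 12.4 CPM per kilobase (n = 8), followed by Itga6 at 95.9 ± 10.8, Itgb4 at 91.5 ± 12.4 and Ly6d at 87.3 ± 18.6, and each of these overlapped its neighbour in the order. Trp63 came next at 60.0 ± 4.81, apart from Ly6d above and Pdpn below it. The other 5 genes lay between 21.1 and 29.8 on this scale, each overlapping the next.

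In adult mTEChi WT the order differed: Ly6d at 72.7 ± 8.42 CPM per kilobase (n = 7), Cldn4 at 67.3 ± 13.6, Itga6 at 61.4 ± 5.82 and Ly6a at 54.0 ± 8.43 stood above the rest. Ngfr at 6.57 ± 1.91 and Pdpn at 6.49 ± 1.27 were lowest. In neonatal mTEClo Ctrl, Itga6, Trp63, Ly6a and Itgb4 all lay between 53.1 and 55.3 CPM per kilobase with overlapping libraries, and Ngfr was lowest at 5.88 ± 1.47 (n = 3). In neonatal mTEChi AireEEDdKO, Ly6d stood apart from the other 9 genes at 147 ± 39.4 CPM per kilobase (n = 3).

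**Figure D1:**
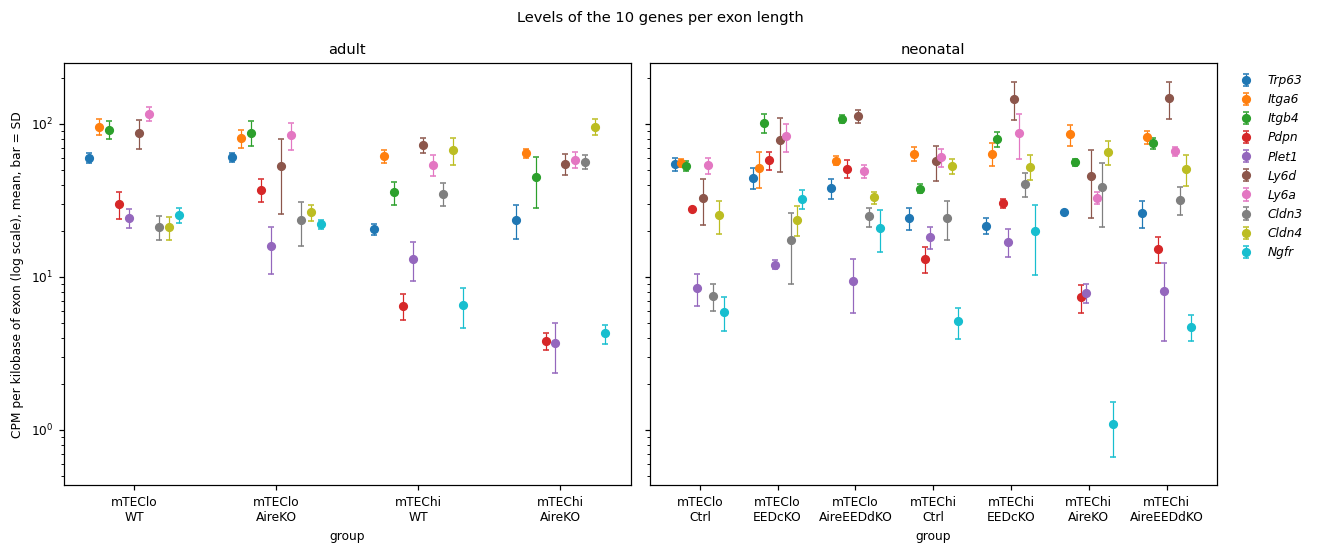
Mean level of each gene per kilobase of exon (vertical axis, log scale, bars SD over libraries) in the 4 adult and 7 neonatal groups. Ngfr falls to 1.1 in neonatal mTEChi AireKO and reaches 32.4 in neonatal mTEClo EEDcKO, and Trp63 is lower in each mTEChi group than in the mTEClo group of the same genotype.

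A gene was called higher or lower where edgeR's quasi-likelihood test gave a Benjamini-Hochberg adjusted p under 0.05 over all genes tested and the change was at least 2-fold, and "rose" and "fell" are used only of such calls. Maturation was examined first, as mTEChi against mTEClo. In adult WT, 6 of the 10 genes were called, against 36% of 19310 genes tested: Cldn4 was higher, and Trp63, Pdpn, Itgb4, Ly6a and Ngfr were lower. In adult AireKO, 6 of 10 were called, against 35.3%, with Cldn3 and Cldn4 higher and Trp63, Pdpn, Plet1 and Ngfr lower. In neonates Ngfr was left out of the counts, and in Ctrl 5 of 9 genes were called, against 20.7% of 20196 genes, with Plet1, Cldn3 and Cldn4 higher and Trp63 and Pdpn lower. In neonatal EEDcKO 3 of 9 were called against 21.8%, and in neonatal AireEEDdKO 1 of 9, Pdpn, against 21%. Over all genes, 23.8% were called higher and 12.3% lower in adult WT, 17.8% and 17.5% in adult AireKO, 13.8% and 6.92% in neonatal Ctrl, 14.2% and 7.67% in EEDcKO, and 10.4% and 10.6% in AireEEDdKO.

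For Aire dependence, in adult mTEChi, AireKO against WT, 1 of 10 genes was called, Plet1, against 23.4% of all genes, 5.09% higher and 18.3% lower. In adult mTEClo, 0 of 10 were called by edgeR or DESeq2, against 8.31% (4.61% higher, 3.7% lower), while 6 had an unadjusted p under 0.05, and within 1 kind of library 2 of 10 were called, Plet1 and Ly6d. In neonatal mTEChi, 1 of the 9 genes tested was called, again Plet1, against 16.4% (3.56% higher, 12.8% lower). When Aire was lost on top of EED, 1 of 9 was called in mTEChi, Plet1, against 13.3% (4.99% higher, 8.36% lower). In mTEClo, 0 of 9 were called by edgeR or DESeq2, against 5.3% (3.45% higher, 1.85% lower), and 2 had an unadjusted p under 0.05.

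Loss of EED was compared next. In neonatal mTEChi, EEDcKO against Ctrl, 3 of 9 genes rose, Pdpn, Itgb4 and Ly6d, against 13.9% of all genes called, 8.48% higher and 5.4% lower. In neonatal mTEClo, 3 of 9 rose, Pdpn, Ly6d and Cldn3, against 15.7% called, 9.51% higher and 6.22% lower. In AireEEDdKO against AireKO mTEChi, 2 of 9 rose, Pdpn and Ly6d, against 9.47% called, 6.69% higher and 2.78% lower. No tested gene of the set was called lower in these 3 comparisons, the first and last of which share no library. Ngfr, chosen for this pattern, was left out of these counts. The EEDcKO and AireKO comparisons in mTEChi share their Ctrl libraries, and each AireEEDdKO comparison shares libraries with others of its fraction.

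**Figure D2:**
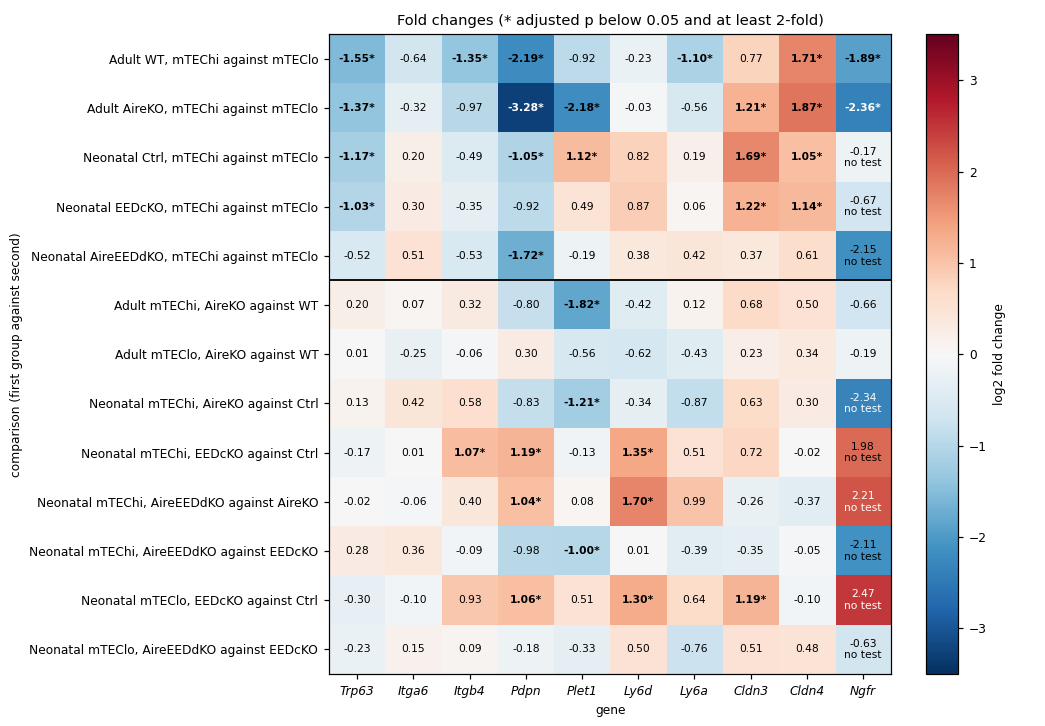
Log2 fold changes of the 10 genes (columns) in 13 comparisons (rows), with colour and printed value giving the size and an asterisk marking an edgeR call. The upper 5 rows compare mTEChi with mTEClo, where Cldn3 and Cldn4 are positive in every row, and the lower 8 compare genotypes, with the neonatal Ngfr values marked as not tested.

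Trp63 (ENSMUSG00000022510, chromosome 16, 25683763 to 25892102, plus strand, GRCm38) was lower in mTEChi in all 5 comparisons of the fractions and called in 4. In adult WT it ran from 418 CPM over a median of 507 to 547 CPM in mTEClo, and from 155 over 178 to 191 in mTEChi, with no overlap. On the log2 scale mTEChi differed from mTEClo by −1.55 (SE 0.09, edgeR adjusted p 6.3e-15), a 2.93-fold difference. In adult AireKO the mTEClo libraries had 499, 559, 475 and 501 CPM and the mTEChi libraries 157, 152, 243 and 236 CPM, a log2 difference of −1.37 (SE 0.12, edgeR adjusted p 1.1e-10). In bulk libraries, fewer cells with a transcript and less of it per cell cannot be told apart.

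In neonatal Ctrl, Trp63 had 419, 449 and 508 CPM in mTEClo and 210, 180, 191, 259 and 180 CPM in mTEChi, and it fell by 1.17 (SE 0.14, edgeR adjusted p 2.6e-06). In EEDcKO the difference was −1.03 (SE 0.15, edgeR adjusted p 2.7e-05), close to the 2-fold limit. It lay under that limit at −0.96 with RLE scaling and at −0.95 with replicate number as a block. In AireEEDdKO, mTEClo had 294, 288 and 370 CPM and mTEChi 189, 201 and 270 CPM, a log2 difference of −0.52 (SE 0.16, edgeR adjusted p 0.013) that stayed under 2-fold. The mTEClo libraries of this genotype were therefore below each Ctrl mTEClo library, while the mTEChi libraries overlapped those of Ctrl. The mTEClo libraries of AireEEDdKO and Ctrl shared no age, so age and genotype cannot be told apart between them.

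No genotype comparison that was run passed the test for Trp63, and AireEEDdKO was not tested against Ctrl. Against WT or Ctrl the log2 fold changes were 0.20 in adult mTEChi AireKO (SE 0.11, edgeR adjusted p 0.12), 0.01 in adult mTEClo AireKO (SE 0.10, p 0.94), 0.13 in neonatal mTEChi AireKO (SE 0.14, p 0.54), −0.17 in mTEChi EEDcKO (SE 0.15, p 0.40) and −0.30 in mTEClo EEDcKO (SE 0.15, p 0.13). Genes associated with p63, such as the desmosomal cadherin Dsc3 and the growth factor receptor Fgfr2, were followed as a list. Of 12 such genes, 6 fell and 1 rose in adult WT mTEChi, against 12.3% and 23.8% of all genes, with Fgfr2 at −3.80 and Dsc3 at −1.89 against the transcription factor Tfap2c at 1.74, and the median of the list was −0.73 against 0.01 for all genes. In neonatal Ctrl, 4 fell and none rose, against 6.92% and 13.8% of all genes, among them Dsc3 at −2.31 and the Notch ligand Jag2 at −2.49.

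In neonatal mTEChi AireKO 5 of the 12 p63-associated genes fell, against 12.8% of all genes, among them the p53 family member Trp73 at −4.22 (SE 0.36, edgeR adjusted p 1.3e-07) and Fgfr3 at −1.15. In adult mTEChi AireKO the fallers were Trp73 at −5.10 and Fgfr3 at −1.6, 2 of 12 against 18.3% of all genes. After EED loss 2 rose in mTEChi, against 8.48% of all genes, Tfap2a at 1.58 and Jag2 at 1.22, and 3 rose in mTEClo, against 9.51%, led by Tfap2a at 2.40 and Trp73 at 1.78. Trp63 stood at 0.13 in the same neonatal comparison as Trp73 at −4.22, and the difference between the genes was not tested.

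Itga6 and Itgb4 encode the chains of integrin α6β4, the laminin receptor of hemidesmosomes. Itga6 (ENSMUSG00000027111, chromosome 2, 71745616 to 71858416, plus strand) was not called in any of the 13 comparisons. In adult WT it ran from 724 over 861 to 1030 CPM in mTEClo and from 500 over 530 to 631 CPM in mTEChi, without overlap but under 2-fold (log2 fold change −0.64, SE 0.08, edgeR adjusted p 2.6e-08). In neonates the sign was positive in Ctrl (0.20, SE 0.16, edgeR adjusted p 0.32), EEDcKO (0.30, p 0.15) and AireEEDdKO (0.51, p 0.022). Its levels in neonatal mTEChi were 887, 778 and 645 CPM in AireKO against 622, 654, 533, 530 and 530 CPM in Ctrl, a log2 difference of 0.42 (SE 0.15, edgeR adjusted p 0.041).

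Itgb4 (ENSMUSG00000020758, chromosome 11, 115974709 to 116008412, plus strand) fell in adult WT mTEChi, from 515 to 779 CPM (median 644) in mTEClo to 198 to 301 CPM (median 244), a log2 difference of −1.35 (SE 0.14, edgeR adjusted p 1.0e-09). In adult AireKO it had 703, 709, 579 and 467 CPM in mTEClo and 446, 370, 208 and 227 CPM in mTEChi, and the difference of −0.97 (edgeR adjusted p 5.6e-05) fell short of 2-fold. It passed 2-fold with replicate number as a block (−1.03, edgeR adjusted p 3.5e-07), with library size alone (−1.06), and without mTEClo AireKO replicate 4 (−1.05) or mTEChi AireKO replicate 1 (−1.14) or 2 (−1.06). Within 1 kind of library it was −0.75 (edgeR adjusted p 0.0028). A stretch of 537 bases of its exons overlaps the antisense gene B230344G16Rik, and reads were counted without regard to strand, so transcripts of the 2 cannot be separated there.

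Itgb4 rose after EED loss in mTEChi. In neonatal mTEChi, Itgb4 had 249, 242, 278, 276 and 278 CPM in Ctrl and 492, 553 and 617 CPM in EEDcKO, so that every EEDcKO library exceeded every Ctrl library. It rose by 1.07 (SE 0.10, edgeR adjusted p 4.1e-07), with 0.99 when EEDcKO replicate 3 was left out, whereas Itga6 differed by 0.01 (SE 0.15, edgeR adjusted p 0.99). In neonatal mTEClo, Itgb4 had 341, 389 and 387 CPM in Ctrl and 610, 656, 719 and 845 CPM in EEDcKO, a difference of 0.93 (SE 0.11, edgeR adjusted p 3.2e-06) that fell short of 2-fold.

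Itgb4 was also higher in neonatal mTEChi AireKO, with 419, 379 and 387 CPM (log2 fold change 0.58, SE 0.11, edgeR adjusted p 0.00041), under 2-fold. On this raised level, EED loss added 0.40 (SE 0.12, edgeR adjusted p 0.023), to 528, 562 and 475 CPM in AireEEDdKO. The test of the difference between the EED effects with and without Aire gave −0.66 (SE 0.16, edgeR adjusted p 0.038), the only one of 9 tested genes past the adjusted threshold, and under 2-fold. With replicate number as a block it was −0.71 (edgeR adjusted p 0.058), no longer past that threshold. By the rule that also asks for 2-fold, 0 of 9 were called by edgeR or DESeq2, against 1.25% of all genes, 0.807% higher and 0.446% lower, and 2 had an unadjusted p under 0.05.

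Other genes of the basal attachment, 13 in all, were followed as a list. In adult WT mTEChi 7 fell and 1 rose, against 12.3% and 23.8% of all genes: the laminin chain Lama3 was at −1.93 and the hemidesmosomal plakin Dst at −1.61, whereas Col17a1, a transmembrane collagen of hemidesmosomes, rose by 1.43 (SE 0.09, edgeR adjusted p 6.5e-14). In neonatal Ctrl 3 fell, against 6.92% of all genes, and none rose, led by Lama3 at −1.09 and Lamb3 at −1.70. With EED loss, 2 rose in mTEChi, against 8.48% of all genes, the laminin-binding protein Bcam at 1.85 and the basal keratin Krt14 at 1.2, and 4 rose in mTEClo, against 9.51%, led by Col17a1 at 1.89 and Bcam at 1.72. With Aire loss, 2 of the 13 fell in neonatal mTEChi, against 12.8% of all genes, Bcam at −1.21 and Lamb3 at −1.21, so Bcam fell in a comparison where Itgb4 was higher.

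Pdpn (ENSMUSG00000028583, chromosome 4, 143267431 to 143299564, minus strand) encodes a mucin-type membrane glycoprotein. It was called in 7 of 13 comparisons. In adult WT it ran from 34.1 over 55.8 to 68.9 CPM in mTEClo and from 9.11 over 11 to 15.1 CPM in mTEChi, a log2 difference of −2.19 (SE 0.14, edgeR adjusted p 4.9e-14). In adult AireKO the mTEClo libraries had 51.2, 78.4, 69.9 and 69.4 CPM and the mTEChi libraries 7.28, 7.11, 5.66 and 7.71 CPM, a log2 difference of −3.28 (SE 0.21, edgeR adjusted p 6.8e-14). The gap between fractions thus widened without Aire, and the difference of the 2 gaps was −1.09 (SE 0.26, edgeR adjusted p 0.0026).

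Against WT, Pdpn differed by −0.80 in AireKO mTEChi (SE 0.22, edgeR adjusted p 0.0033, no overlap, under 2-fold) and by 0.30 in mTEClo (SE 0.14, edgeR adjusted p 0.12). Against the 13.8% of genes called for this difference of effects in adults, 2.23% higher and 11.6% lower, 2 of 10 genes were called, Pdpn and Plet1, both more negative in mTEChi. With a term for the kind of library, Pdpn was at −1.14 (edgeR adjusted p 0.0028), but that fit put Aire itself at 0.10 in adult mTEChi. Without mTEChi AireKO replicate 3 Pdpn was at −0.99.

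In neonates, Pdpn had 49.2, 51.5 and 49.7 CPM in mTEClo Ctrl and 22.3, 18.3, 28.1, 29.3 and 21.1 CPM in mTEChi Ctrl, and it fell by 1.05 (SE 0.16, edgeR adjusted p 3.3e-05). EED loss raised it in mTEChi to 51.6, 54.9 and 58.9 CPM, by 1.19 (SE 0.15, edgeR adjusted p 7.9e-06), and in mTEClo to 95.5, 93.7, 105 and 125 CPM, by 1.06 (SE 0.16, edgeR adjusted p 3.5e-05). In both fractions every EEDcKO library lay above every Ctrl library. The mTEClo rise dropped under 2-fold without Ctrl replicate 1 (0.99), Ctrl replicate 3 (0.99) or EEDcKO replicate 4 (0.97), and with replicate number as a block (0.97). The Pdpn difference between Ctrl fractions was −0.98 without mTEChi replicate 2. The 2 increases differed by 0.13 (SE 0.22, edgeR adjusted p 0.84), and for this difference 0 of 9 genes were called by edgeR or DESeq2, with 0 at an unadjusted p under 0.05, against 1.58% of all genes.

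After Aire loss Pdpn had 10.2, 15.0 and 14.9 CPM in neonatal mTEChi AireKO, each below every Ctrl library (log2 fold change −0.83, SE 0.19, edgeR adjusted p 0.0025, under 2-fold). Adding EED loss brought it to 21.6, 30.4 and 31.2 CPM in AireEEDdKO, a rise of 1.04 over AireKO (SE 0.21, edgeR adjusted p 0.0013). That rise lay near the limit, between 0.90 and 1.17 when single libraries were left out, and under 2-fold in 3 of 6 such fits, those without AireKO replicate 1 and without AireEEDdKO replicates 2 and 3. Against EEDcKO, AireEEDdKO was at −0.98 in mTEChi (SE 0.18, edgeR adjusted p 0.00054) and −0.18 in mTEClo (SE 0.15, edgeR adjusted p 0.51). The mTEChi value lay near the limit and passed the rule for a call under RLE (−1.01), library size alone (−1.11), DESeq2 (−1.0) and with only the groups compared (−1.03).

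Pdpn is also known from fibroblasts and lymphatic endothelium, and markers of both moved with EED loss. The summed level of 7 mesenchymal genes, collagens and Dcn among them, ran from 131 to 134 CPM in neonatal mTEClo Ctrl and from 559 to 833 CPM in EEDcKO, and from 247 to 330 and from 493 to 774 CPM in mTEChi. All 7 were detected in each of these groups. The sum of Lyve1, Prox1 and Flt4, all detected, ran from 23.3 to 26.8 CPM in neonatal mTEClo Ctrl and from 41.7 to 92.2 CPM in EEDcKO, and in mTEChi 25.8 to 51.0 (Ctrl), 79.6 to 105 (EEDcKO) and 13.7 to 20.7 (AireKO). In adults this lymphatic sum ran from 79.9 to 120 CPM in mTEClo WT, 33.2 to 62.2 in mTEChi WT and 8.99 to 20.6 in mTEChi AireKO, the order of Pdpn in these groups. Between neonatal fractions its median was higher in mTEChi in Ctrl (39.6 against 26.8 CPM) and EEDcKO (104 against 74), the reverse of Pdpn. In AireEEDdKO it was lower in mTEChi (40.1 against 62.7), as Pdpn was. In adult WT mesenchymal genes ran from 63 to 97.3 CPM in mTEClo and from 201 to 367 CPM in mTEChi, the reverse of Pdpn. The sum of 6 other endothelial genes, Pecam1 and Kdr among them, was lower with EED loss alone. It ran from 82.0 to 85.8 CPM in neonatal mTEClo Ctrl and from 44.6 to 51.4 CPM in EEDcKO. In mTEChi it ran from 137 to 169 CPM in Ctrl and, overlapping, from 107 to 139 CPM in EEDcKO. With Aire lost, mTEChi had 163 to 190 CPM in AireKO and 162 to 395 CPM in AireEEDdKO. The part of all these markers in the level of Pdpn was not tested.

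Plet1 (ENSMUSG00000032068, chromosome 9, 50494525 to 50505482, plus strand) encodes a membrane protein carried by early thymic epithelial progenitors, and of the 9 genes tested for genotype throughout it was the only one called with Aire loss in adult and neonatal mTEChi. Pdpn was also lower in both, without overlap but under 2-fold. In adult mTEChi Plet1 ran from 16.7 over 23.2 to 34.0 CPM in WT and had 10.3, 6.72, 3.99 and 7.71 CPM in AireKO. It fell by 1.82 (SE 0.26, edgeR adjusted p 1.3e-06), or 3.53-fold. In neonatal mTEChi it had 28.5, 32.1, 38.5, 34.6 and 43.4 CPM in Ctrl and 12.9, 15.7 and 17.1 CPM in AireKO, and it fell by 1.21 (SE 0.29, edgeR adjusted p 0.0035). The groups did not overlap at either age.

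In adult mTEClo, Plet1 ran from 36.9 over 47.8 to 58.1 CPM in WT, and AireKO had 24, 20.5, 34.8 and 43.7 CPM, a log2 difference of −0.56 (SE 0.19, edgeR adjusted p 0.032). AireKO replicates 1 to 3 were below every WT library and replicate 4 was not. With replicates 1 and 2 alone, the ones with mitochondrial counts, Plet1 fell by 1.10 (edgeR adjusted p 0.0028). The Aire effect in mTEChi was more negative than in mTEClo by 1.26 on the log2 scale (−1.26, SE 0.32, edgeR adjusted p 0.0047), and by −0.98 without mTEClo AireKO replicate 4. Counts of Plet1 were low in these libraries, from 12 to 24 in mTEChi AireKO.

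No EED comparison of Plet1 passed the test. Neonatal mTEChi EEDcKO had 37.5, 25.4 and 36.5 CPM (log2 fold change −0.13, SE 0.26, edgeR adjusted p 0.74), and mTEClo had 13.1, 20.5 and 15.6 CPM in Ctrl and 22.0, 25.7, 22.6 and 23.3 CPM in EEDcKO, which did not overlap (0.51, SE 0.29, edgeR adjusted p 0.19). With both genes lost, mTEChi had 6.42, 18.3 and 22.6 CPM, overlapping AireKO (0.08, SE 0.33, edgeR adjusted p 0.92) and lower than EEDcKO (−1.0, SE 0.31, edgeR adjusted p 0.022). The latter call was lost in 3 of 6 fits with a library omitted and lay at −0.66 without AireEEDdKO replicate 1, whose 6.42 CPM rest on 11 counts. That call was also lost with age as a term (−0.96) and with only the groups compared (−1.06, edgeR adjusted p 0.081).

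The direction of Plet1 between the fractions differed between adult WT and neonatal Ctrl. In adult AireKO it was lower in mTEChi by −2.18 on the log2 scale (SE 0.27, edgeR adjusted p 7.6e-08), and in adult WT by −0.92 (SE 0.16, edgeR adjusted p 1.4e-05, no overlap, under 2-fold). In neonatal Ctrl it was higher in mTEChi, by 1.12 (SE 0.28, edgeR adjusted p 0.0037), and by 0.98 without mTEClo Ctrl replicate 1. Neonatal EEDcKO gave 0.49 (SE 0.27, edgeR adjusted p 0.16) and AireEEDdKO −0.19 (SE 0.31, edgeR adjusted p 0.67). The ages were measured in separate tables and the difference between them was not tested. Exons of Plet1 overlap the antisense gene Plet1os over 261 bases, so these counts may hold reads of both.

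**Figure D3:**
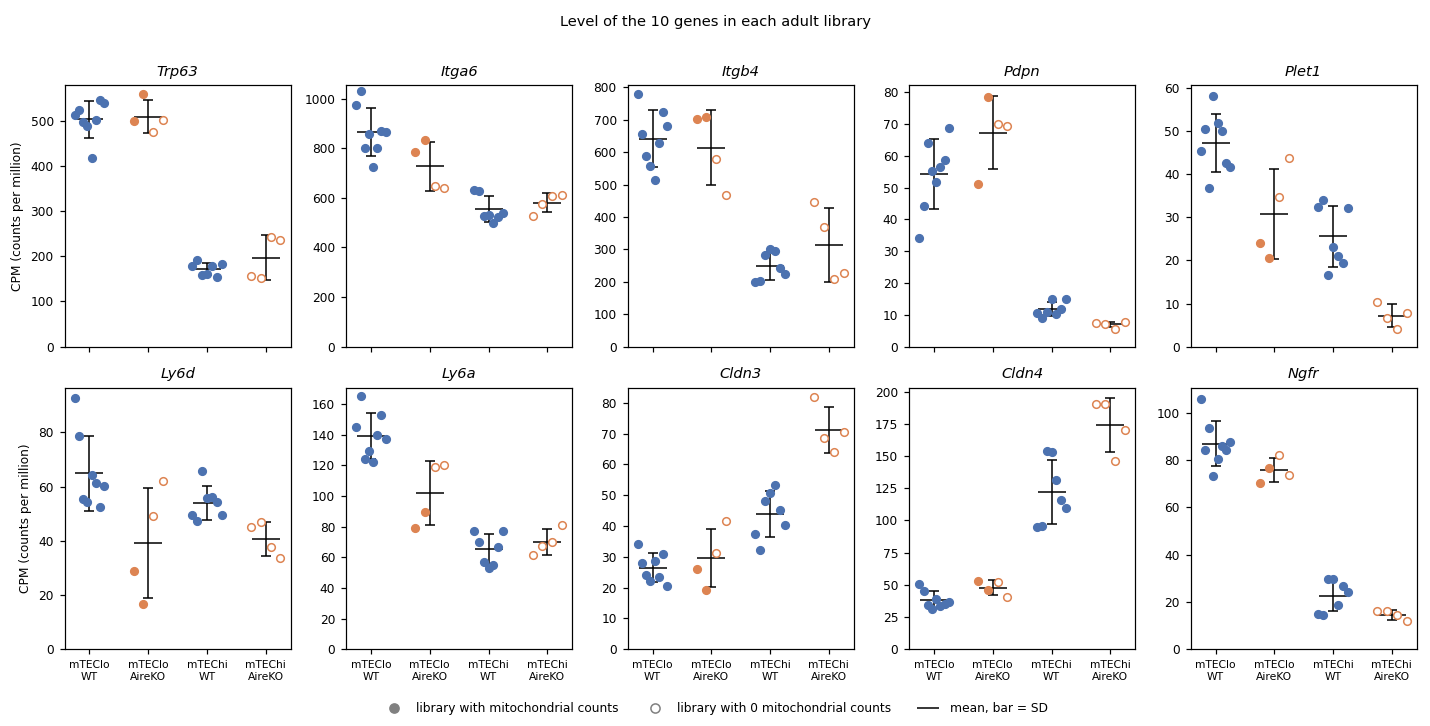
CPM of each gene (vertical axes start at 0) in every adult library by group, with mean and SD, where open symbols are libraries with 0 mitochondrial counts. Pdpn in mTEChi AireKO sits between 5.66 and 7.71 CPM, below the other groups, and Ly6d in mTEClo AireKO splits into 16.8 and 28.9 CPM with and 49.2 and 62.1 CPM without mitochondrial counts.

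Ly6d (ENSMUSG00000034634) and Ly6a (ENSMUSG00000075602) encode small proteins anchored to the membrane by a lipid, and Ly6a is the antigen Sca-1, used to isolate progenitors in many tissues. Both lie on the minus strand of chromosome 15, Ly6d at 74762056 to 74763620 and Ly6a at 74994877 to 74998031, 231.3 kb apart. Despite this nearness they differed between adult fractions. Ly6a fell in WT mTEChi, from 122 to 165 CPM (median 138) to 53.3 to 77.1 CPM (median 66.9), by 1.10 on the log2 scale (SE 0.10, edgeR adjusted p 1.4e-10), whereas Ly6d was at −0.23 (SE 0.16, edgeR adjusted p 0.19) with overlapping libraries.

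Ly6d rose in the 3 comparisons that tested EED loss. In mTEChi it had 49.1, 43.5, 30.8, 32.5 and 56.0 CPM in Ctrl and 123, 73.8 and 129 CPM in EEDcKO, and it rose by 1.35 (SE 0.29, edgeR adjusted p 0.0010). In Aire-deficient mTEChi it rose by 1.70 (SE 0.35, edgeR adjusted p 0.0016), from 52.3, 23.2 and 26.6 CPM in AireKO to 131, 120 and 76.0 CPM in AireEEDdKO. In mTEClo it rose by 1.30 (SE 0.33, edgeR adjusted p 0.0051), from 17.4, 22.6 and 33.5 CPM in Ctrl to 28.7, 54.5, 77.4 and 73.3 CPM in EEDcKO. The mTEChi groups did not overlap, but in mTEClo the lowest EEDcKO library lay within the Ctrl range, and without Ctrl replicate 1 the call was lost (1.03, edgeR adjusted p 0.059).

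Ly6d was not called for Aire loss in neonates (mTEChi AireKO −0.34, SE 0.32, edgeR adjusted p 0.46, and AireEEDdKO against EEDcKO 0.01, SE 0.32, p 0.99). In adult mTEClo the picture depended on the library kind. WT ran from 52.3 over 60.8 to 92.7 CPM, AireKO replicates 1 and 2 had 28.9 and 16.8 CPM, and replicates 3 and 4, without mitochondrial counts, had 49.2 and 62.1 CPM. The pooled log2 fold change was −0.62 (SE 0.20, edgeR adjusted p 0.020), and within 1 kind of library Ly6d fell by 1.48 (edgeR adjusted p 2.9e-05). In adult mTEChi it was at −0.42 (SE 0.20, edgeR adjusted p 0.085), and at −1.69 (p 7.4e-05) in a fit that took the difference between kinds from mTEClo. That fit put Aire itself at 0.10 in adult mTEChi, so kind and genotype cannot be told apart there.

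No genotype difference of Ly6a was called. In neonatal mTEChi it had 68.1, 61.3, 84.0, 68.1 and 81.8 CPM in Ctrl, 135, 68.1 and 114 CPM in EEDcKO, 39.4, 36.2 and 43.4 CPM in AireKO and 82.3, 83.1 and 73.2 CPM in AireEEDdKO. AireKO lay below Ctrl in every library (log2 fold change −0.87, SE 0.19, edgeR adjusted p 0.0021), and AireEEDdKO above AireKO in every library (0.99, SE 0.21, edgeR adjusted p 0.0024). Both lay near the limit: with library size alone they were −1.08 and 1.02, without AireKO replicate 3 they were −1.0 and 1.06, and without AireEEDdKO replicate 3 the latter was 1.04, all of which passed the rule for a call. In mTEClo, AireEEDdKO had 60.1, 53.1 and 64.3 CPM, all below EEDcKO with 72.5, 96.2, 110 and 120 CPM (−0.76, SE 0.18, edgeR adjusted p 0.013). In adult mTEClo it was at −0.43 with Aire loss (SE 0.12, edgeR adjusted p 0.0092), and at −0.74 (p 0.0007) within 1 kind of library.

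Among 16 other genes of the Ly6 family, 10 fell and 1 rose in adult mTEChi AireKO, against 18.3% and 5.09% of all genes. Psca was at −4.97 (SE 0.50, edgeR adjusted p 3.9e-09), Ly6g, a neutrophil antigen, went from a mean of 56.8 to 0.107 CPM, and Ly6i rose by 1.22. In neonatal mTEChi AireKO 9 of 15 tested fell and none rose, against 12.8% and 3.56%, among them Lypd2 at −3.98, and Ly6g had 0 counts in all 3 AireKO libraries against a mean of 64.7 CPM in Ctrl. Ly6d and Ly6a were called in neither comparison. After EED loss 3 of 15 rose, against 8.48% of all genes, and none fell in mTEChi, led by Ly6h at 2.30 and Lynx1, a modulator of acetylcholine receptors, at 1.62, and in mTEClo 3 rose and 2 fell, against 9.51% and 6.22%, with Lynx1 at 2.75 and Ly6g at −2.67. Several genes of this family are near copies of each other, so reads shared between them leave their values uncertain.

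Cldn3 (ENSMUSG00000070473, chromosome 5, 134986214 to 134987472, plus strand) and Cldn4 (ENSMUSG00000047501, 134945119 to 134946934, minus strand) encode claudins of tight junctions, each from a single exon. Their mean was higher in mTEChi than in mTEClo in all 5 comparisons of the fractions. In adult WT, Cldn4 ran from 31.3 over 35.8 to 50.6 CPM in mTEClo and from 95.0 over 116 to 154 CPM in mTEChi, and it rose by 1.71 (SE 0.11, edgeR adjusted p 1.3e-13). Cldn3 ran from 20.6 over 26.1 to 34.1 CPM in mTEClo and from 32.2 over 45.2 to 53.3 CPM in mTEChi, 0.77 on the log2 scale (SE 0.13, edgeR adjusted p 9.9e-06), with overlap and under 2-fold.

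Both were called in adult AireKO and in neonatal Ctrl and EEDcKO. In adult AireKO, Cldn4 rose in mTEChi by 1.87 (SE 0.16, edgeR adjusted p 2.8e-11), from 52.9, 46.1, 51.9 and 40.7 CPM to 190, 190, 146 and 170 CPM. Cldn3 rose by 1.21 (SE 0.18, edgeR adjusted p 1.1e-06), from 26.2, 19.3, 31.2 and 41.7 CPM to 81.8, 68.7, 63.9 and 70.6 CPM, and was at 0.95 within 1 kind of library. In neonatal Ctrl, Cldn3 had 9.05, 11.5 and 7.81 CPM in mTEClo and 28.5, 29.2, 29.2, 21.5 and 45.5 CPM in mTEChi, a rise of 1.69 (SE 0.34, edgeR adjusted p 0.00072). Cldn4 rose there by 1.05 (SE 0.19, edgeR adjusted p 0.00027), from 54.9, 49.0 and 33.5 CPM to 85.9, 89.9, 102, 90.3 and 111 CPM, and by 0.94 without mTEClo Ctrl replicate 3.

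In AireEEDdKO the fractions differed less: Cldn3 was at 0.37 (SE 0.32, edgeR adjusted p 0.39) and Cldn4 at 0.61 (SE 0.20, edgeR adjusted p 0.020), neither called. Cldn3 was also higher in mTEClo after EED loss, with 11.4, 36.7, 22.6 and 17.5 CPM in EEDcKO, a rise of 1.19 over Ctrl (SE 0.36, edgeR adjusted p 0.014). This call rested on few libraries, since it was lost without Ctrl replicate 1 (1.08), Ctrl replicate 3 (1.02) or EEDcKO replicate 2 (0.86). Cldn4 did not follow in mTEClo (−0.10, SE 0.20, edgeR adjusted p 0.73), nor did it in mTEChi (−0.02, SE 0.18, edgeR adjusted p 0.95).

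With Aire loss in adult mTEChi both claudins were higher but under 2-fold, Cldn3 at 0.68 (SE 0.15, edgeR adjusted p 0.00037, no overlap) and Cldn4 at 0.50 (SE 0.13, edgeR adjusted p 0.0015). With a term for the kind of library Cldn3 was at −0.01 (edgeR adjusted p 1.0) and Cldn4 at 0.60 (p 0.080), but the same fit put Aire itself at 0.10, so kind and genotype cannot be told apart here. In neonatal mTEChi, where all libraries had mitochondrial counts, AireKO values were 0.63 for Cldn3 (SE 0.29, edgeR adjusted p 0.10) and 0.30 for Cldn4 (SE 0.18, edgeR adjusted p 0.22). A stretch of 40 bases of the Cldn3 exon overlaps Wbscr25.

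Other tight junction genes were followed as a list. Of 14 tested in adult WT mTEChi, 5 rose and 2 fell, against 23.8% and 12.3% of all genes, with tricellulin, encoded by Marveld2, at 1.57 and the scaffold Tjp3 at 1.11 among the former and Cldn1 at −1.16 and Cldn12 at −1.14 as the latter. In neonatal Ctrl, 4 rose, against 13.8% of all genes, Marveld2 at 1.23 and Tjp3 at 1.05 among them, and Cldn8 fell by 2.04. Cldn8 stood out in the Aire comparisons, at −3.19 in adult mTEChi (SE 0.55, edgeR adjusted p 1.8e-05) and 1.80 in adult mTEClo (SE 0.22, edgeR adjusted p 5.8e-07), and the difference of these effects was −4.99 (SE 0.56, edgeR adjusted p 2.1e-07). After EED loss Cldn6 rose in both neonatal fractions, by 1.97 in mTEChi and 2.83 in mTEClo, while Marveld2 fell by 1.30 in mTEChi.

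**Figure D4:**
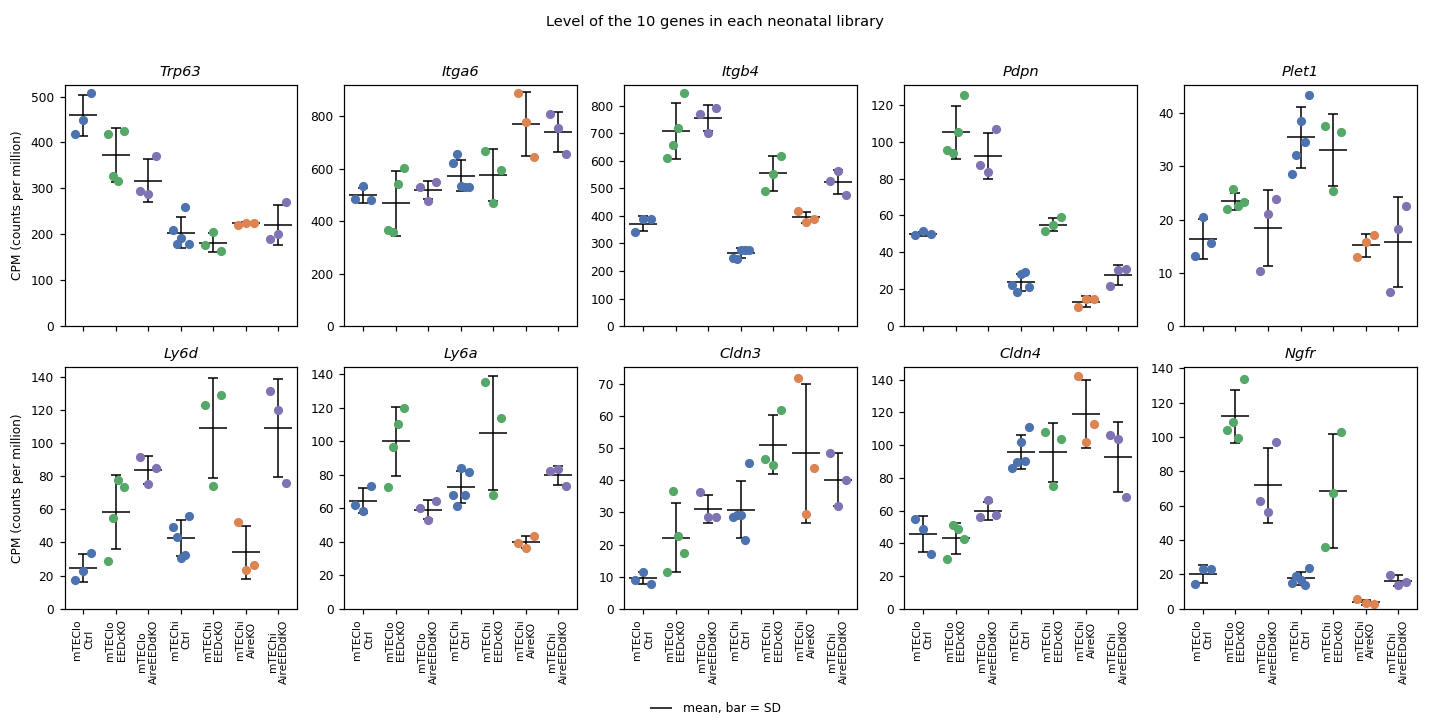
CPM of each gene (vertical axes start at 0) in every neonatal library by group, with mean and SD. Ngfr reaches 99.6 to 134 CPM in mTEClo EEDcKO and 2.52 to 5.44 CPM in mTEChi AireKO, and Pdpn and Itgb4 in EEDcKO lie above Ctrl in both fractions.

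Ngfr (ENSMUSG00000000120, chromosome 11, 95568818 to 95587735, minus strand) encodes p75, a receptor of all neurotrophins that is also found on basal cells of several epithelia. In adults, where it was tested, it ran from 73.4 over 85.2 to 106 CPM in mTEClo WT and from 14.6 over 24.1 to 29.8 CPM in mTEChi WT, and it fell by 1.89 (SE 0.12, edgeR adjusted p 5.1e-14). In AireKO it had 70.3, 76.5, 82.2 and 73.6 CPM in mTEClo and 16.3, 16.2, 14.6 and 11.8 CPM in mTEChi, a log2 difference of −2.36 (SE 0.18, edgeR adjusted p 2.8e-12). Aire loss gave −0.66 in mTEChi (SE 0.17, edgeR adjusted p 0.0022, under 2-fold) and −0.19 in mTEClo (SE 0.13, edgeR adjusted p 0.29). The difference of these effects was −0.47 (SE 0.22, edgeR adjusted p 0.12).

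In neonates the levels of Ngfr covered a wider range. The mTEChi libraries had 15.1, 18.9, 16.6, 13.6 and 23.9 CPM in Ctrl, 36.2, 67.5 and 103 CPM in EEDcKO, 5.44, 3.42 and 2.52 CPM in AireKO and 19.9, 13.7 and 15.3 CPM in AireEEDdKO. AireKO lay below and EEDcKO above all Ctrl libraries, and AireEEDdKO overlapped Ctrl. The AireKO values rest on 5 to 9 counts per library, against 27 to 103 in Ctrl. In mTEClo, Ctrl had 14.4, 23 and 23.4 CPM, EEDcKO had 104, 109, 99.6 and 134 CPM, and AireEEDdKO had 62.9, 56.2 and 96.9 CPM, and no library of one of these groups lay within the range of another.

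The libraries behind the neonatal comparisons of the fractions were used in choosing Ngfr, so these too are a description. Its log2 difference, mTEChi against mTEClo, was −0.17 in Ctrl, −0.67 in EEDcKO (−1.07 without mTEChi replicate 3) and −2.15 in AireEEDdKO. The libraries of the fractions overlapped in Ctrl and EEDcKO and did not in AireEEDdKO. The mTEChi EEDcKO library with 36.2 CPM came from mice aged 6 days, the one with 67.5 from 2 to 3 days and the one with 103 from 1 day, whereas in mTEClo EEDcKO the 6-day library had 99.6 and the 1-day library 109 CPM.

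The mesenchymal sum was higher with Ngfr after EED loss, as given for Pdpn. Ngfr is also known from Schwann cells, whose markers Sox10 and S100b summed to between 7.25 and 15.2 CPM in neonatal mTEChi Ctrl, between 9.21 and 42.7 with EED loss, between 2.73 and 4.48 with Aire loss and between 3.44 and 7.32 with both lost. In neonatal mTEClo this sum lay between 4.46 and 7.04 CPM in Ctrl, between 9.01 and 13.5 with EED loss and between 5.94 and 22.0 with both lost. It was thus lower with Ngfr in every mTEChi AireKO library and higher with it in every mTEClo EEDcKO library than in Ctrl. In adults it ran from 1.3 to 7.39 CPM in mTEClo WT, 7.89 to 17.5 in mTEChi WT and 0.79 to 4.28 in mTEChi AireKO. Markers of cortical epithelium moved as well, from 2050 to 3160 CPM in mTEClo Ctrl to 287 to 1020 CPM in EEDcKO over 7 genes. Their part in the levels of Ngfr, Pdpn, Ly6d, Itgb4 and Cldn3 was not tested.

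Genes of neurotrophin signalling, ligands, Trk receptors and partners of p75, were followed as a list of 14. In neonatal mTEClo EEDcKO, 8 rose and 1 fell, against 9.51% and 6.22% of all genes. The receptor Ntrk3 rose by 4.29 (SE 0.54, edgeR adjusted p 6.8e-06) and the sortilin relative Sorcs2, a partner of p75, by 1.38, while the ligand Bdnf fell by 1.14. In mTEChi EEDcKO 5 of 14 rose and none fell, against 8.48% and 5.4%, led by Sorcs2 at 1.16 and the Nogo receptor Rtn4r at 2.51.

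With Aire loss in neonatal mTEChi, 3 of the 14 fell and 1 rose, against 12.8% and 3.56% of all genes. Ntrk3 had 0 counts in all 3 AireKO libraries against a mean of 13.2 CPM in Ctrl, and Lingo1, a partner of p75 and the Nogo receptor, rose by 1.6. In adult mTEChi 3 of 12 fell and 1 rose, against 18.3% and 5.09%, with Ntrk3 at −3.66 and Lingo1 at 1.85. Adding EED loss to Aire loss raised 4 of 14, against 6.69% of all genes, and lowered none, led by Sorcs2 at 1.22 and Rtn4r at 2.26. Between adult WT fractions 12 of the list were tested, 3 higher, against 23.8%, among them Traf6 at 1.23, and 3 lower, against 12.3%, among them Sorcs2 at −1.48 and the ligand Ntf5 at −2.04.

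Genes known from immature mTECs, 9 in all, were followed as well. In adult WT mTEChi 5 fell and none rose, against 12.3% and 23.8% of all genes, led by Igfbp4 at −3.12 and Igfbp5 at −2.0, which encode binding proteins of insulin-like growth factors. In neonatal Ctrl mTEChi 1 fell, Bmp4 at −1.66, and 1 rose, Lgr5 at 1.5, against 6.92% and 13.8%. After EED loss 5 rose and none fell in neonatal mTEChi, against 8.48% and 5.4%, among them Igfbp4 at 1.46 and the transcription factor Sox9 at 1.11, and 5 rose in mTEClo, against 9.51%, among them Igfbp4 at 2.40 and Igfbp5 at 2.33. In neonatal mTEChi AireKO 2 fell and 1 rose, against 12.8% and 3.56%. Those that fell were Igfbp5 at −1.07 and Bmp4 with 0 counts in all 3 libraries against a mean of 1.18 CPM, while Sox9 rose by 1.23. Markers of mature mTECs summed to between 2120 and 2160 CPM in neonatal mTEClo Ctrl and between 1300 and 2110 CPM in EEDcKO, and to between 2440 and 3750 and between 2690 and 3910 CPM in mTEChi. Their part in these results was not tested.

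Likeness of pattern was measured as Pearson's r of log2(CPM + 1) over the 23 adult and over the 24 neonatal libraries, taking the lower of both, among 12979 other protein-coding genes with a mean of at least 5 CPM in each table. The libraries share their groups and fractions, so these values describe patterns over groups. Pdpn was most like Nhs (0.971) and Selenon (0.971), Trp63 most like Vezf1 (0.955) and Tcf4 (0.953), and Ngfr most like Lama5 (0.937), a laminin chain, and Tmtc1 (0.934). Cldn4 was most like Rab11fip1 (0.941) and Madd (0.936), Itgb4 like Ski (0.933) and Glis2 (0.933), and Cldn3 like its relative Cldn7 (0.887) and Igsf8 (0.880).

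The other genes had looser partners. Ly6a was most like Lgals3bp (0.831), Itga6 like Fryl (0.811), Ly6d like Selenom (0.810) and then its family member Lynx1 (0.691), and Plet1 like Atp8b1 (0.798). Within the set, Pdpn and Ngfr were the closest pair at either age, with r of 0.96 in adults and 0.90 in neonates, although Ngfr was chosen with its neonatal values known. Cldn3 and Cldn4 had 0.89 and 0.77. Itga6 and Itgb4, whose proteins form 1 receptor, had 0.79 in adults and −0.19 in neonates.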

How the data were processed

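Raw read counts per gene were deposited by the authors for 23 adult and 24 neonatal libraries. Per the study's methods, the authors trimmed reads with fastp 0.20.0, aligned them with STAR 2.7.3a to mm10 with an Ensembl annotation whose release is not given in the sources used here, removed low mapping qualities and duplicates with SAMtools 1.9 and Picard 2.21.1, and counted with htseq-count 0.11.2 regardless of strand. Removing duplicates compresses the counts of highly expressed short genes. The authors' normalized tables were not used, and 0 columns lacked a label.

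Each table was filtered with filterByExpr, scaled by TMM and fitted over all its groups with edgeR 4.0.16 in R 4.3.3. SE is the log2 fold change divided by the root of F. DESeq2 1.42.0, other scalings and filters, terms for sex, age, library kind and replicate, and leaving out single libraries were alternatives. The fits were tested on simulated counts. Genes of the related lists were named by the smallest adjusted p, up to 2 in each direction, among those called. Members and lists were chosen with earlier results of these data known. Ngfr was fitted between neonatal fractions too, but without a printed test, since the same libraries led to its choice.

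Replicate numbers were checked for pairing by the correlation of deviations from group means. Same-numbered mTEChi and mTEClo libraries had r of 0.13 to 0.19 in adult AireKO and 0.26 to 0.39 in neonatal AireEEDdKO, so the numbers were taken to pair the libraries there. In adult AireKO 2 of 4 numbers correlated best with their own. Same-numbered libraries of both genotypes also shared their age, so pairing and age cannot be told apart. Replicate 1 of neonatal AireEEDdKO is labelled as pooled sex in mTEChi and as female in mTEClo, so the labels do not bear out that pair. Reported values come from the fit without the replicate block. For genes of the set, the blocked value stands beside a reported result whose call it changes. The smallest chi-square per gene between libraries of a group was 1.23, in adult mTEChi WT replicates 1 and 2, and none was counted as a duplicate. Some pairs were much closer than the rest of their group. In adult mTEChi AireKO, replicates 1 and 2 had 1.34 and replicates 3 and 4 had 1.28, against 4.01 to 6.42 for the other pairs. Replicates 1 and 2 of neonatal mTEChi Ctrl had 1.24. The labels do not say what such pairs share, so these groups may hold fewer independent samples than libraries. Some genes and the sums that hold them are not reported here.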

Additional observations from a re-analysis of the deposited data

Results flagged for a closer look

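Among 60 pairs of a gene and a group of 4 to 10 libraries, 1 held a library far from the rest, where chance flags about 1 in 20: Trp63 in adult mTEClo WT replicate 5 was lowest of 8 at 418 CPM, against 488 to 547 CPM in the others, a gap of 0.539 of the range.

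The effect of Aire loss differed between adult mTEChi and mTEClo for Pdpn, by −1.09 on the log2 scale, and for Plet1, by −1.26, by edgeR's test of the difference. All mTEChi AireKO libraries lacked mitochondrial counts, so library kind and genotype cannot be told apart there. With a term for it they were −1.14 and −1.56.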

How the results depend on the processing

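Counts of genes called are given first. With no filter on low counts they were 8046 for Aire loss in adult mTEChi (4516 as reported), 13803 between adult WT fractions (6956), 455 for the Aire by EED interaction (253) and 566 for the EED effect between fractions (320). With no minimum change they were, in adults, 10529 and 4841 for Aire loss in mTEChi and mTEClo, 13574 and 11173 between fractions in WT and AireKO, and 4708 for the difference of Aire effects. In neonates they were 6592 and 5816 for EEDcKO and AireKO against Ctrl in mTEChi, 3400 and 4544 for AireEEDdKO against AireKO and against EEDcKO, 6206 and 1619 for EEDcKO against Ctrl and AireEEDdKO against EEDcKO in mTEClo, and 7546, 7667 and 7907 between fractions in Ctrl, EEDcKO and AireEEDdKO. Age as a term gave 1056 in adult mTEClo (1605). The interaction gave 388 by DESeq2, 393 with only the groups compared and 76 with the replicate block. With only the groups compared, AireEEDdKO against EEDcKO gave 1749 in mTEChi (2696) and 40 in mTEClo (1071).

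Of the genes of the set, with no minimum change 5 and 4 were called for Aire loss in adult mTEChi and mTEClo, 5 for AireKO, 4 for AireEEDdKO against AireKO and 2 against EEDcKO in neonatal mTEChi, 5 and 1 in the mTEClo comparisons, 7 and 6 between fractions in EEDcKO and AireEEDdKO with Ngfr counted, and 1 for the interaction. A term for libraries without mitochondrial counts gave 2 in each adult fraction, and 1 kind of library gave 2 in mTEClo. With that term Aire itself was at 0.10 in adult mTEChi, opposite to −4.85 as reported. The term takes its size from 4 mTEClo AireKO libraries, in which Aire ran from 0 to 7.63 CPM. AireEEDdKO against EEDcKO in mTEChi gave 2 under RLE, library size alone, no filter, a minimum of 10 counts, sex as a term and DESeq2, and 0 with age as a term. Library size alone gave 3 for neonatal AireKO.

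Leaving out 1 library gave 1 to 2 genes of the set for the difference of adult Aire effects, 3 to 5 between Ctrl fractions, 1 to 3 for AireEEDdKO against AireKO, 0 to 2 against EEDcKO, 1 to 2 for AireKO and 0 to 3 for mTEClo EEDcKO, and 178 to 421, 43 to 530 and 377 to 1507 genes in all for the EED effect between fractions, the interaction and mTEClo AireEEDdKO against EEDcKO. The cause of these shifts was not tested. All 35 values of at least 2-fold kept their direction under RLE, library size alone and DESeq2, but 2, 1 and 2 calls were lost: Pdpn between Ctrl fractions under each, and Trp63 between EEDcKO fractions under RLE and DESeq2. In the comparisons taken as paired the replicate block changed 1 call, Itgb4 between adult AireKO fractions (−1.03). In others it took Pdpn in mTEClo EEDcKO against Ctrl to 0.97 and Trp63 between EEDcKO fractions to −0.95, both under 2-fold. Between EEDcKO fractions it also took Ly6d to 1.04 (edgeR adjusted p 0.012), past the rule for a call. In all other comparisons numbers were not taken to pair libraries, although in neonatal mTEChi AireEEDdKO and AireKO 3 of 3 numbers correlated best with their own (r 0.088 to 0.2).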
